A study of Mus musculus with 14 samples.

Results

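The genes described here encode the respiratory chain and the ATP synthase of mitochondria. They were chosen by symbol: protein-coding genes whose names begin with mt-Nd, mt-Co, mt-Atp, mt-Cyt, Nduf, Cox4 to Cox8, Uqcr or Atp5. Of the 54532 genes of the liver table, 103 matched, 13 of them encoded by the mitochondrial genome and 90 by the nucleus. Of the 16481 genes of the table of pancreatic stellate cells (PSCs), 92 matched, 7 mitochondrial and 85 nuclear, and 91 genes were members in both tables. A further 13 genes of the liver table had a matching symbol but were pseudogenes or other noncoding types, and were left out.

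The respiratory chain passes electrons from NADH and succinate to oxygen and pumps protons across the inner mitochondrial membrane, and ATP synthase uses the return flow of protons to make ATP. Complex I (Nduf and mt-Nd genes) takes electrons from NADH, complex III (Uqcr genes and mt-Cytb) hands them to cytochrome c, complex IV (Cox genes and mt-Co) reduces oxygen, and complex V (Atp5 and mt-Atp genes) is ATP synthase. Complexes I, III, IV and V are built from subunits of both genomes, and the nucleus alone encodes complex II. Hepatocytes are rich in mitochondria, which also serve urea synthesis, fatty acid oxidation and gluconeogenesis in these cells.

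RNA-Seq was performed on mouse livers and on cultured mouse PSCs. The 8 livers came from 2 WT, 3 TRPV4-KO and 3 GSK219-treated WT mice, 8–12 weeks old and of both sexes, and all had received 100000 KPCY pancreatic cancer cells in the tail of the pancreas 20 days earlier. KPCY cells have a functional Trpv4 gene, and the TRPV4 deletion is a global one of the host. Mice called WT in the study carried floxed Piezo1 alleles. GSK219 (GSK2193874) is an antagonist of the cation channel TRPV4 and was given daily by gavage at 10 mg/kg in 6% cavitron. Whether the WT mice were gavaged with the vehicle is not stated in the sources used here. Mouse PSCs were grown on Matrigel with 5% serum for 3 days and treated with 25 μM Yoda1, an agonist of the PIEZO1 channel, or with its solvent DMSO, for a time given as 24 hours in one place and 72 hours in another. Each of the 3 DMSO libraries shares a code in its label with 1 Yoda1 library, and such a pair is called a preparation below, although the sources used here do not say what the code marks. The comparisons asked whether the genes of the respiratory chain differed between WT livers and livers that lacked TRPV4 or were treated with its antagonist, and between PSCs with and without Yoda1.

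Liver libraries held 15567031–17395299 counts, and PSC libraries 27312894–39070539 reads. Trpv4 itself had 43 and 53 counts in the WT livers, 15, 5 and 23 in the TRPV4-KO and 20, 30 and 36 in the GSK219-treated ones, so reads remained in the deleted animals. The log2 fold change of WT over TRPV4-KO was 1.71 ± 0.50 (SE), with an adjusted p of 0.161 by edgeR's quasi-likelihood test. The library TRPV4-KO 3 stood apart by skeletal muscle transcripts, chosen after their values were seen: Acta1 had 478 counts there and 0–7 in the other 7 livers, and Ckm 145 against 0–6. Marker genes of hepatocytes were abundant in every liver. All 9 measured stellate cell markers were present in the PSCs, and Gfap is not listed in that table. Levels are given below as CPM (counts relative to the TMM-scaled size of each library) for livers and as the deposited normalized value (reads divided by a size factor per library) for PSCs.

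Of the 103 members of the liver table, 96 had enough counts to be tested. The 7 untested ones were Cox4i2, Cox6a2, Cox6b2, Cox7b2, Cox8b, Cox8c and a second Atp5o identifier, and 3 of them had no count in any liver. Several of these are isoforms that muscle or testis uses in place of the common one. Cox6a2 and Cox8b, the heart and skeletal muscle isoforms of complex IV subunits 6a and 8, had 24 and 10 counts in TRPV4-KO 3, the library with the muscle transcripts, and at most 3 and 0 counts in the other livers.

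Among the nuclear genes, levels per length spanned a wide range. Expressed as TPM (counts per kilobase of gene model, scaled to the same sum in every library), Cox6a1 had a mean of 781 over the 8 livers (range 679–863) and Atp5a1, the alpha subunit of ATP synthase, 741 (range 560–872). Next came Cox8a at 615 (range 531–686) and Atp5b, the catalytic beta subunit, at 608 (range 474–707). The ranges of these neighbors overlapped. The liver isoforms outweighed their tissue-specific partners in every pair examined: Cox7a2 had a mean of 179 TPM against 2.60 for the muscle isoform Cox7a1, and Ndufa4 238 TPM against 3.03 for Ndufa4l2, an isoform known from hypoxic cells.

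The 13 mitochondrial genes took 3.08–3.98% of all counts in each liver, and mt-Co1, the catalytic subunit of complex IV, alone took 1.30–1.85%. Wilson 95% intervals of the shares of the 13 genes were at most ± 0.00955 percentage points, and they cover counting error only. The per-length levels split the 13 genes into 2 groups. In 7 genes the mean lay between 27736 (mt-Nd6) and 166267 (mt-Co1) counts per kb. The other 6, mt-Co2, mt-Atp8, mt-Atp6, mt-Co3, mt-Nd3 and mt-Nd4l, averaged 56.4–2185 counts per kb and together held 0.699% of the mitochondrial counts.

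**Figure D1:**
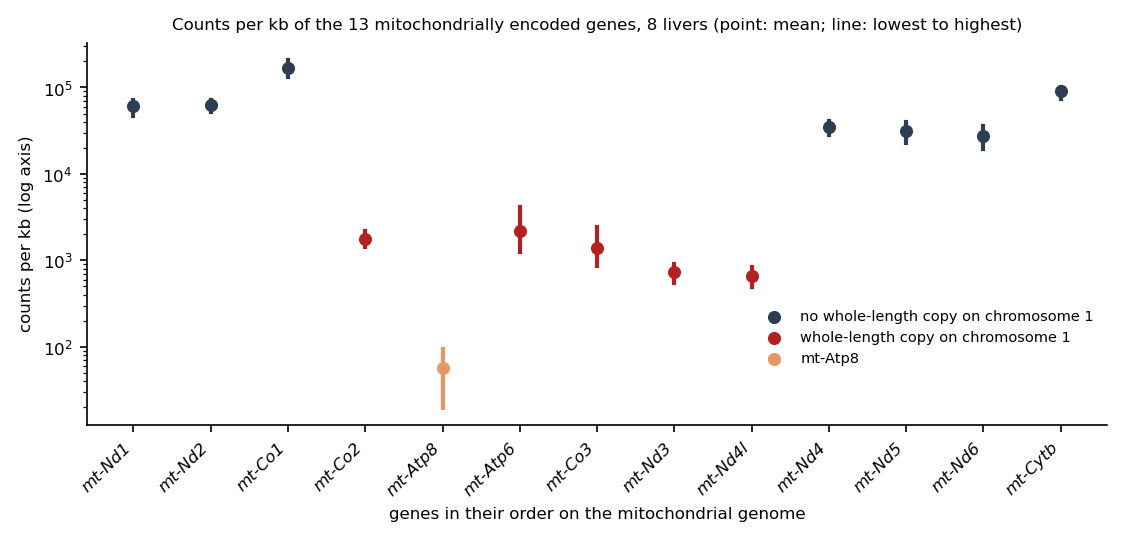
Counts per kb (log axis) of the 13 mitochondrially encoded genes in the 8 livers, in genome order; points are means and lines run from the lowest to the highest liver. Genes with a whole-length copy on chromosome 1 and mt-Atp8 average 56.4–2185, and the others 27736–166267.

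Of the 13 mitochondrial genes, 7 have annotated copies, whole or partial, in a run on chromosome 1 of the nuclear genome. On chr1:24611535-24616197 (GRCm38, minus strand) the annotation lists 7 pseudogenes in a row that match mt-Co1 to mt-Nd4. Gm28661, Gm10925, Gm28437 and Gm10222 were identical over their whole length to mt-Co2, mt-Atp6, mt-Co3 and mt-Nd4l, and Gm28438 differed from mt-Nd3 by 1 substitution, T3C, counted from 1 at the first base of the mitochondrial gene. Gm28439 was identical to 876 of the 1378 bases of mt-Nd4, and Gm29216 covered 483 of the 1545 bases of mt-Co1 with 1 substitution, A1066T. The starts of both kinds are shown 5′ to 3′ because, outside the bases that differ, a read from either place has the same letters. The first 60 bases of mt-Co2 (chrMT:7013-7072, plus strand) and of its copy (chr1:24615506-24615565, minus strand) were the same, and in the first 30 bases of mt-Nd3 (chrMT:9459-9488, plus strand) and its copy (chr1:24613090-24613119, minus strand) the capital marks the base that differs.
mt-Co2: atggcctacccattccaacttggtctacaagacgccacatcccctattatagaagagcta
Gm28661: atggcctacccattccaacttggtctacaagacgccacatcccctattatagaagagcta
mt-Nd3: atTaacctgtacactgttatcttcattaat
Gm28438: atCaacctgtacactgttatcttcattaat

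The pseudogenes had counts of their own, 569–801 per liver for Gm28661 and 730–952 for Gm10925. Over the same livers mt-Co2 had 975–1514 counts and mt-Atp6 848–2819. How reads that match both places were assigned is not given in the sources used here, so the values of the 5 genes with a whole copy are uncertain. The mt-Atp8 gene has no annotated copy, but it lies between mt-Co2 and mt-Atp6, whose copies are neighbors in the run. The unannotated bases between those 2 copies were not aligned, so whether they match mt-Atp8 was not tested, and its value is uncertain too. The mt-Atp8 gene shares 43 bases with mt-Atp6. It had 4–19 counts. In the PSC table the same 6 genes are not listed, nor are the pseudogenes, which leaves mt-Nd1, mt-Nd2, mt-Nd4, mt-Nd5, mt-Nd6, mt-Cytb and mt-Co1. Likewise mt-Nd6, which is read from the other strand, shares 14 bases with mt-Nd5, and whether the counting used strand is not given.

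Promoters of the nuclear members were described from RefSeq windows of GRCm38.p6, 250 bases before to 50 bases after the annotated start, which matched 71 of the 90 nuclear members. The motifs were searched on both strands. GCGCATGCG, the core bound by the transcription factor NRF1, was present in 10 of the 71 windows (14.1%) and in 2.0% of the windows of all 27025 genes. AAGATGGCG, the core bound by YY1, was in 8 (11.3%, all genes 1.6%). The ETS core CCGGAAG was in 16 (22.5%, all genes 9.9%), the CRE TGACGTCA in 4 (5.6%, all genes 2.0%), the hypoxia response core ACGTG in 16 (22.5%, all genes 21.8%) and the ERR element TCAAGGTCA in 1 (1.4%, all genes 0.5%). Matches of ACGTG and TGACGTCA can overlap in part. A match is a description of letters and not a bound site.

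The NRF1 and YY1 matches of some members are shown because their placement differed. Of 8 YY1 matches, 7 lay 11–36 bases downstream of the start, and 2 of 10 NRF1 matches did. Each is written 5′ to 3′ on the strand of the gene with up to 10 bases on each side, and capitals mark the motif. The NRF1 matches of Uqcrc1 (chr9:108936668-108936697, plus strand), Cox6a1 (chr5:115349101-115349130, minus strand) and Ndufaf4 (chr4:24897960-24897989, plus strand) read the same core on both strands, and that of Uqcr11 (chr10:80406808-80406836, minus strand) is on the reverse strand only. The YY1 matches are from Ndufa9 (chr6:126849097-126849125, minus strand), Atp5j2 (chr5:145191500-145191528, minus strand) and Atp5j (chr16:84835046-84835074, minus strand).
Uqcrc1: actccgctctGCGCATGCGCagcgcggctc
Cox6a1: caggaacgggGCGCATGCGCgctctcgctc
Ndufaf4: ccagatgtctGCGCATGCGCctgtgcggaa
Uqcr11: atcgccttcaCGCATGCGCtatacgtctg
Ndufa9: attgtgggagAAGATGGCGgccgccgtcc
Atp5j2: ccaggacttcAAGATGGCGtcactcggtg
Atp5j: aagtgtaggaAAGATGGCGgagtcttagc
The matches were 31 bases downstream (Uqcrc1) and 162, 113 and 5 bases upstream (Cox6a1, Ndufaf4 and Uqcr11) of the start for NRF1, and 30 and 24 bases downstream (Ndufa9 and Atp5j2) and 88 bases upstream (Atp5j) for YY1. The window of Ndufb10 held ACGTG and none of the other motifs.

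In livers of WT mice most nuclear genes of the chain had lower values than in TRPV4-KO livers, and none of them passed edgeR's quasi-likelihood test across all genes. The median log2 fold changes of the complexes ran from -0.30 (complex I) to -0.39 (complex III), and differences between complexes were not tested. Of the 83 nuclear members tested, 80 had a negative log2 fold change of WT over TRPV4-KO, against 51.2% of all 15118 genes tested. Their median was -0.31, against -0.01 over all genes. In 60 of the 83 both WT livers were below all 3 TRPV4-KO livers, a pattern that 15.5% of all genes showed, and in 0 were both above (17.7%). By edgeR's quasi-likelihood test 0 of the 83 were called at an adjusted p under 0.05, where 0.126% of all genes were called lower and 0.165% higher in WT. At an unadjusted p under 0.05, 44 of the 83 were lower in WT (7.61% of all genes) and 0 higher (9.5%). DESeq2 called 11 of them lower (1.19% of all genes) and 0 higher (1.71%). Genes of a shared pathway vary together, so these counts are a description and not 83 independent results. In bulk tissue, fewer cells of a type and less RNA per cell cannot be told apart.

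**Figure D2:**
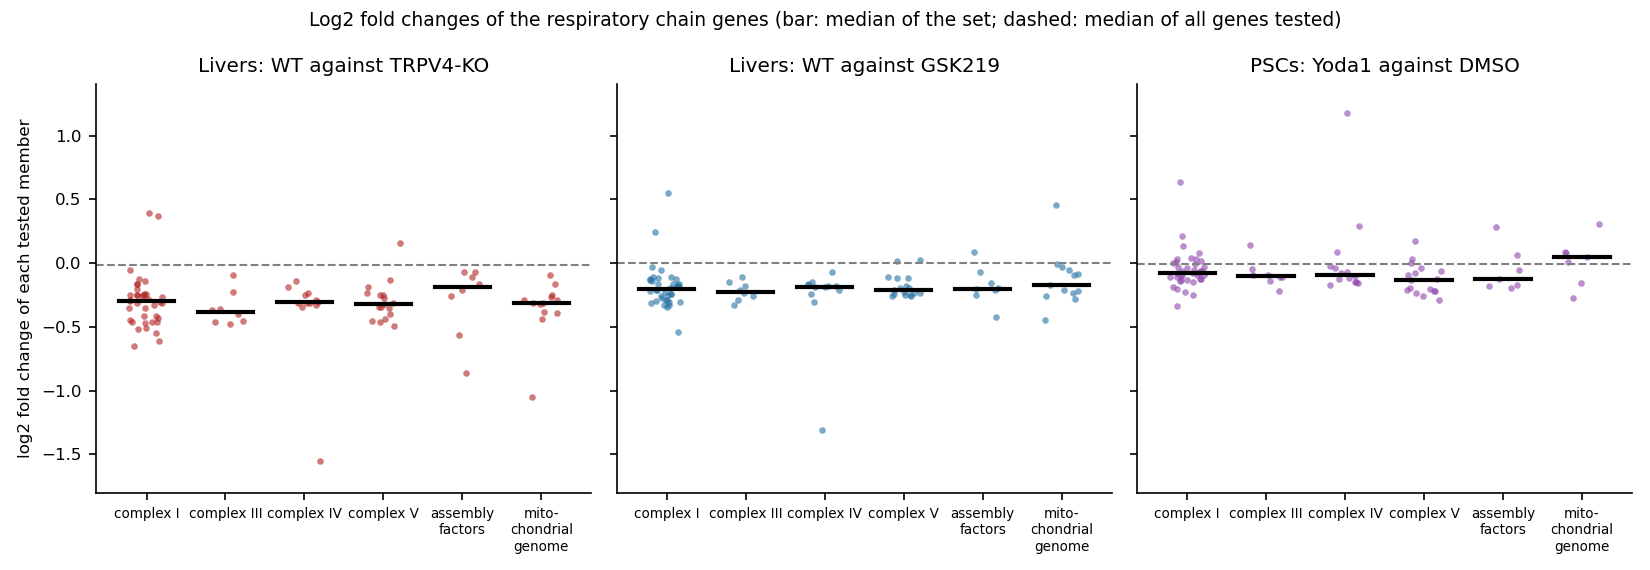
Log2 fold change of every tested member in the 3 comparisons, grouped by complex; points are genes, bars the median of each set and dashed lines the median of all genes tested. In the 2 liver panels the medians of all sets lie below the dashed line, between -0.39 and -0.17.

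Complex I, the NADH dehydrogenase, had 38 tested nuclear genes by symbol, of which 36 were negative and 28 had both WT livers below all TRPV4-KO livers (median log2 fold change -0.30). Ndufb10, an accessory subunit of the membrane arm (chr17:24722060-24724478), had the smallest p of all members. It stood at 51.1 and 59.3 CPM in WT and at 79.9, 91.7 and 81.3 CPM in TRPV4-KO livers. The log2 fold change was -0.61 ± 0.12 (SE), with an adjusted p of 0.0921 by edgeR's quasi-likelihood test, and the highest WT liver was well below the lowest TRPV4-KO liver. Ndufs1, a core subunit that carries iron-sulfur clusters, had 65.1 and 83.1 CPM in WT and 115, 115 and 95.2 CPM in TRPV4-KO livers (-0.55 ± 0.14, adjusted p of 0.143). Ndufv1, the subunit that binds NADH, had 104 and 115 CPM in WT and 150, 174 and 146 CPM in TRPV4-KO livers (-0.51 ± 0.12, adjusted p of 0.119). The groups of both genes did not overlap. The 2 positive genes were Ndufa12 and Ndufa4l2, at 0.39 ± 0.32 and 0.37 ± 0.51, differences close to their errors. Ndufa4 is named as a complex I gene but is known as a subunit of complex IV, and Ndufa4l2 is its paralog. Without both, 35 of 36 were negative and 27 did not overlap (median -0.30).

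Complex III, the cytochrome bc1 complex, was lower in WT in all 8 tested subunits, without overlap between the groups in any (median -0.39). Uqcrc2, a core protein of the complex (chr7:120635176-120659524), had 124 and 137 CPM in WT and 179, 188 and 178 CPM in TRPV4-KO livers. This corresponded to a log2 fold change of -0.48 ± 0.10 and an adjusted p of 0.113. Uqcrc1, its partner core protein, had 174 and 220.1 CPM in WT and 279, 297 and 236 CPM in TRPV4-KO livers. Uqcrq, a small subunit, differed least, at 206 and 220.0 CPM against 223, 237 and 223 CPM (-0.10 ± 0.11).

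Complex IV, cytochrome c oxidase, had 12 tested nuclear subunits, all negative, and 8 of them did not overlap (median -0.31). Cox6b1, a subunit facing the intermembrane space, had 73.4 and 82.1 CPM in WT and 95.3, 108 and 92.4 CPM in TRPV4-KO livers. Cox4i1, the common isoform of subunit 4, had 208 and 236 CPM in WT and 279, 297 and 252 CPM in TRPV4-KO livers. Neither gene overlapped between the groups, and both differed by about as much as the complex as a whole (-0.34 ± 0.11 and -0.31 ± 0.12). The smallest p of the complex belonged to Cox7a1, the muscle isoform of subunit 7a, at 5 and 3 counts in WT and 13, 10 and 12 in TRPV4-KO livers, which are too few for a firm value (-1.55 ± 0.50, adjusted p of 0.189). Unlike Cox6a2 and Cox8b, Cox7a1 was not highest in TRPV4-KO 3. Cox6a1 and Cox7a2 overlapped between the groups.

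Complex V, ATP synthase, had 16 of 17 nuclear genes by symbol negative, 14 of them without overlap (median -0.32). Atp5f1, subunit b of the peripheral stalk (chr3:105942698-105960099), had 164 and 179 CPM in WT and 239, 245 and 215 CPM in TRPV4-KO livers (-0.44 ± 0.11, adjusted p of 0.135). Atp5b and Atp5a1 make up the catalytic head and were the most abundant nuclear members by CPM. Atp5b stood at 781 and 937 CPM in WT and at 1176, 1267 and 1084 CPM in TRPV4-KO livers, and Atp5a1 at 683 and 855 CPM against 1118, 1156 and 979.9 CPM. The sum over complex V was 2669 and 3167 CPM in WT and 3963, 4145 and 3590 CPM in TRPV4-KO livers. Only Atp5s was positive (0.15 ± 0.30), and it is not a subunit of the enzyme despite its symbol. The 8 complex I assembly factors were negative throughout (median -0.19), but only Ndufaf6 and Ndufaf7 did not overlap. Ndufaf6 had 7.48 and 10.1 CPM in WT and 14.0, 12.5 and 12.4 CPM in TRPV4-KO livers (-0.56 ± 0.19, adjusted p of 0.205). In Ndufaf4 the TRPV4-KO livers disagreed with each other, at 44.3, 46.3 and 13.0 CPM, around 15.96 and 21.9 CPM in WT.

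**Figure D3:**
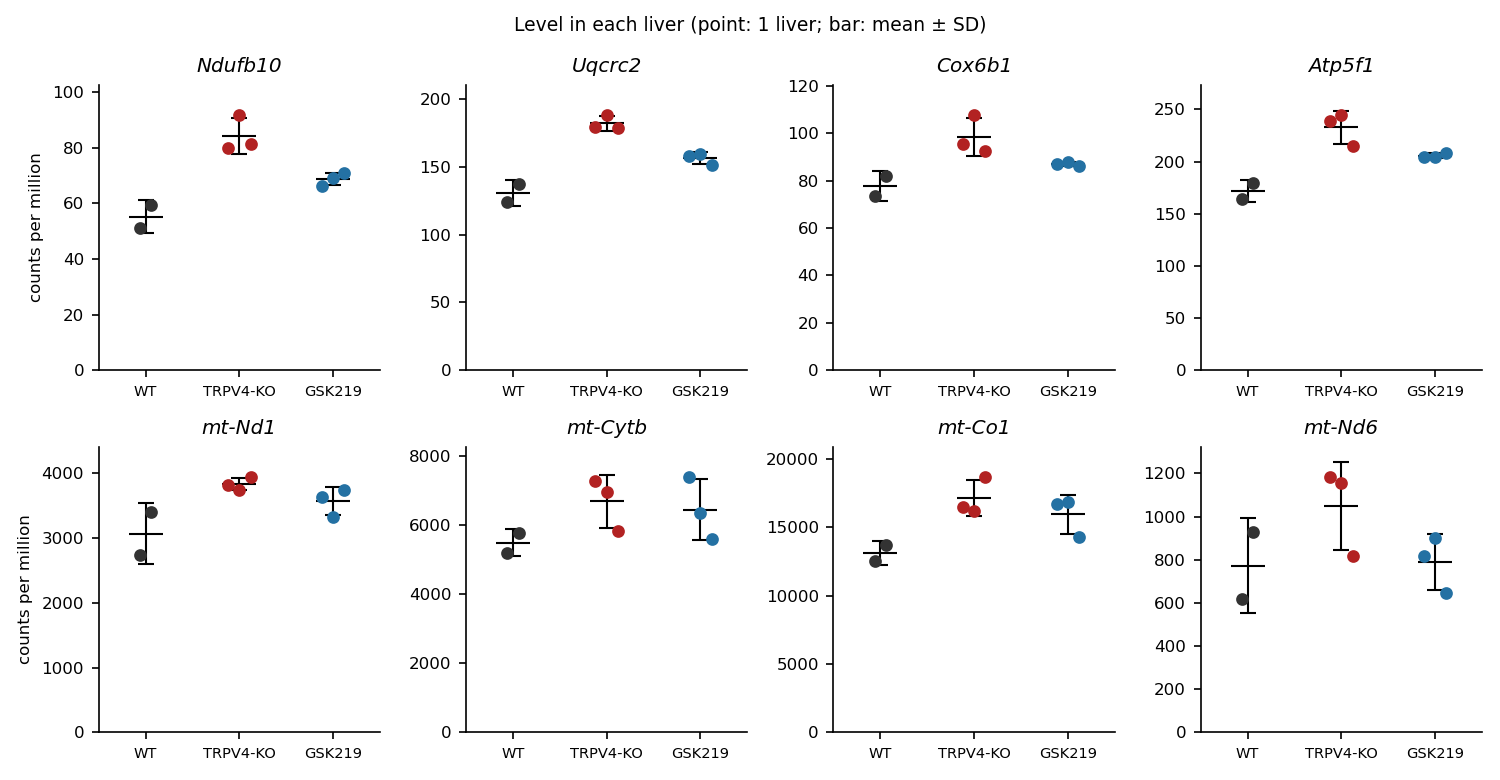
Level of 4 nuclear (top) and 4 mitochondrially encoded genes (bottom) in each liver in CPM; points are livers and bars mean ± SD. For Ndufb10, Uqcrc2, Cox6b1, Atp5f1 and mt-Co1 both WT livers sit below all 6 others, whereas mt-Nd6 overlaps between all groups.

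The count of edgeR calls with group alone changed most with the library TRPV4-KO 3, for the members and for all genes. TRPV4-KO 3 is the liver with the muscle transcripts. It is also the only TRPV4-KO liver with reads of Xist, the transcript of the inactive X chromosome (15754 counts), which WT 1 has too (14224 counts). Without TRPV4-KO 3, edgeR's quasi-likelihood test called 14 nuclear members lower in WT and 0 higher, and 3.62% and 5.02% of all genes were then called lower and higher. The part of either trait in this change was not tested. Against GSK219 the fit without TRPV4-KO 3 called 0 members (0.0134% of all genes higher in WT, 0% lower). The 14 included Ndufb10, Ndufs1, Ndufv1, Ndufa9, Ndufaf4, Uqcrc2, Uqcr11, Atp5c1 and Atp5f1, and 9 of the 14 were complex I genes by symbol (8 without Ndufa4). With the library, the same test with group alone called none of them. Leaving out any of the other 7 livers gave 0 members called, where 0.0063–0.113% of all genes were called lower in WT, so these counts of 0 are near the background. Of the 14, Uqcr11 and Ndufaf4 carry NRF1 matches and Ndufa9 a YY1 match printed above. Among all members with a window, 14.1% had an NRF1 and 11.3% a YY1 match, and a link between matches and calls was not tested.

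The mitochondrially encoded genes also had negative log2 fold changes of WT over TRPV4-KO, but their replicates varied more and most overlapped between the groups. All 13 were negative (median -0.31, 51.2% of all genes negative), 5 did not overlap (15.5% of all genes), and 0 were called by edgeR's quasi-likelihood test or by DESeq2. The 13 include the 6 genes with few counts per kb. Of the 5, mt-Atp8 had only 4 and 12 counts in WT and 16, 19 and 13 in TRPV4-KO livers. With 1 liver left out 12 or 13 were negative, and mt-Atp6 ran from -0.82 to 0.24 and mt-Co3 from -0.53 to 0.26. At an unadjusted p under 0.05, 1 of the 13 was lower, a share near that of all genes (7.61%). This was mt-Co1 (chrMT:5328-6872), at 12502 and 13737 CPM in WT and 16504, 16223 and 18652 CPM in TRPV4-KO livers (-0.38 ± 0.15, adjusted p of 0.250). All TRPV4-KO livers exceeded both WT livers, and the highest of them was TRPV4-KO 3. For mt-Nd1, a core subunit of complex I, WT had 2733 and 3406 CPM and TRPV4-KO 3818, 3749 and 3938 CPM, without overlap. For mt-Cytb, the mitochondrial subunit of complex III, the 5211 and 5769 CPM of WT were below the 7277, 6973 and 5824 CPM of TRPV4-KO, with the closest livers almost level. For mt-Nd6, which is encoded on the other strand, WT had 617 and 928 CPM and TRPV4-KO 1181, 1153 and 815 CPM, and the groups overlapped.

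Summed over the members, both WT livers lay below all TRPV4-KO livers for either genome. They also lay below all GSK219 livers in the nuclear sum, whereas the mitochondrial sum of GSK219 3 was below that of WT 2. The 83 tested nuclear genes summed to 6297 and 7299 CPM in WT, 8904, 9385 and 8057 CPM in TRPV4-KO, and 7972, 7889 and 7905 CPM in GSK219 livers. The 13 mitochondrial genes summed to 29636 and 34203 CPM in WT, 41827, 40668 and 38752 CPM in TRPV4-KO, and to 40362, 38080 and 33409 CPM in GSK219 livers. The ratio of mitochondrial to nuclear counts was 4.71 and 4.69 for WT, 4.33–4.81 for TRPV4-KO and 4.23–5.06 for GSK219, so the WT values lay within the range of the others. Sums over a chosen set were given no test.

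**Figure D4:**
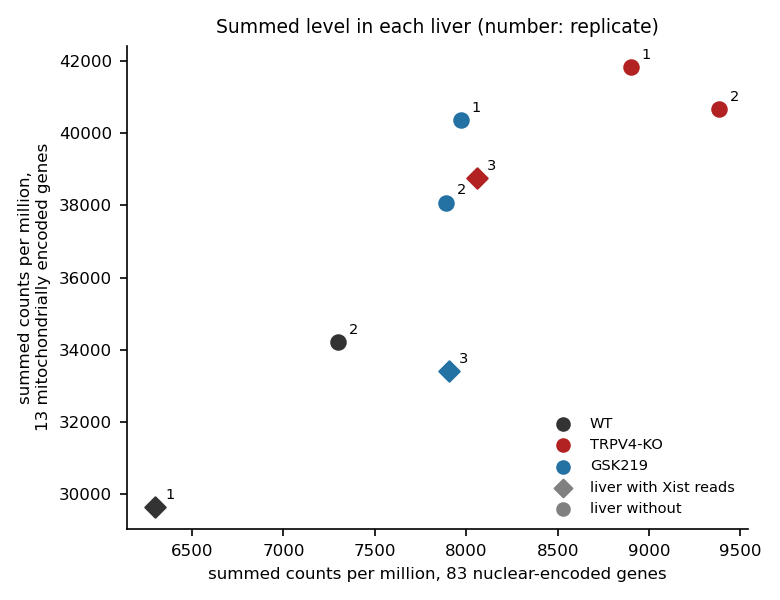
Summed CPM of the 13 mitochondrial genes against that of the 83 nuclear genes, 1 point per liver, with the replicate number beside it; diamonds are livers with Xist reads. WT 1 is lowest on both axes, and the nuclear sums of both WT livers (6297 and 7299) are below the other 6.

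Marker sums of several cell types also differed between the groups, lower in WT for hepatocytes and higher for leukocytes and for stellate cells and fibroblasts. The 10 hepatocyte markers summed to 60371–69511 CPM in WT, to 85038–104198 CPM in TRPV4-KO and to 82908–92991 CPM in GSK219 livers, and none was at 0. The 11 leukocyte markers summed to 812–924 CPM in WT, 235–499 CPM in TRPV4-KO and 253–591 CPM in GSK219 livers, and the 10 stellate cell and fibroblast markers to 229–401, 85.2–161 and 95.02–156 CPM. The 6 endothelial markers had 396–444 CPM in WT, 239–380 CPM in TRPV4-KO and 293–397 CPM in GSK219 livers. Markers of duct, tumor and acinar cells were low in all groups (20.9–40.7 CPM), and the acinar gene Amy2a5 was at 0. The part of these cell types in the levels of the respiratory chain was not tested.

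In the comparison with GSK219 the same WT livers were used, so the values are given beside those above and not as a second, independent result. Most nuclear members again had lower values in WT livers, with a smaller median difference. Of the 83 nuclear members, 78 were negative (50.3% of all genes) with a median of -0.20 (all genes 0.00), and in 50 both WT livers were below all 3 GSK219 livers, against 11.7% of all genes. In 1 gene, Ndufa4l2, both were above (15.6%). By edgeR's quasi-likelihood test no gene of the whole table was called, 0% in either direction, and 10 members were lower in WT at an unadjusted p under 0.05 (2.34% of all genes) and 0 higher (5.87%). DESeq2 called 0 members too (0.111% of all genes lower, 0.3% higher).

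The spread among GSK219 livers was narrow for many nuclear genes. Atp5f1 had 205, 204 and 208 CPM with GSK219, against 164 and 179 CPM in WT (-0.26 ± 0.11). Ndufb10 had 66.3, 69.0 and 70.8 CPM with GSK219, which placed all 3 livers between the WT and the TRPV4-KO values (-0.32 ± 0.12). Uqcrc2 had 158, 159 and 151 CPM (-0.26 ± 0.10). Cox7b, a small subunit of complex IV encoded on the X chromosome, had 69.7, 72.4 and 76.9 CPM with GSK219 and 55.8 and 62.5 CPM in WT (-0.30 ± 0.11). Ndufaf6 had 11.4, 10.5 and 13.6 CPM (-0.43 ± 0.19). In each of these genes both WT livers were below all GSK219 livers.

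By complex, the medians against GSK219 were -0.20 for complex I, -0.22 for complex III, -0.18 for complex IV, -0.21 for complex V and -0.20 for the assembly factors. The median over all nuclear members was -0.12 without WT 1 and -0.30 without WT 2, so each WT liver moved it by over 1.5 times. Of the mitochondrial genes, 12 of 13 were negative (median -0.17), 0 were called by either tool and 0 had an unadjusted p under 0.05. Without WT 1 8 of the 13 were negative, and without WT 2 11. Of the 13, mt-Co1 did not overlap, a share no larger than that of all genes (11.7%), with 16690, 16844 and 14321 CPM with GSK219 (-0.28 ± 0.15). For mt-Nd6, the 815, 901 and 646 CPM with GSK219 lay within the range of the WT livers. Set directly against TRPV4-KO, GSK219 livers were lower in 70 of the 83 nuclear genes (52.6% of all genes) with a median of -0.13, and 0 members were called, where edgeR's quasi-likelihood test called 0.0595% of all genes lower and 0.0463% higher. At an unadjusted p under 0.05, 5 were lower (3.48% of all genes) and 0 higher (2.64%), and 17 nuclear genes were lower without overlap (5.85%) and 0 higher (4.35%).

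Both sexes were used in the study, and Xist, the transcript of the inactive X chromosome, had 13681–15754 counts in WT 1, TRPV4-KO 3 and GSK219 3 and 0–7 in the other 5 livers. Each group thus held exactly 1 liver with Xist reads. Several mitochondrial genes followed these reads: mt-Nd2, mt-Nd5, mt-Nd6, mt-Co3 and mt-Nd4l were lower in all 3 livers with Xist reads than in all 5 others, as 6.08% of all genes were. For mt-Nd2 the livers with Xist reads had 3317–3701 CPM and the others 3838–4772 CPM, and for mt-Nd5 2550.2–3159 against 3458–4657 CPM. Of the nuclear genes, 1 of 83 did so, Ndufs5. For mt-Nd6 and Ndufs5 the closest livers were almost level, at 815.06 against 815.22 CPM and 31.083 against 31.086 CPM. Within the livers with Xist reads, 75 of 83 nuclear genes were lower in WT than in TRPV4-KO (median -0.30), and within the others 78 of 83 (median -0.26). For GSK219 the values were 79 of 83 (median -0.30) and 70 of 83 (median -0.11). Of the 13 mitochondrial genes, 10 and 12 were lower in WT than in TRPV4-KO, in the same order (medians -0.22 and -0.30). Against GSK219, 10 and 10 were lower (medians -0.11 and -0.13). A term for Xist reads gave a mitochondrial median of -0.25 against TRPV4-KO and -0.12 against GSK219, and the fit without it -0.31 and -0.17. With a term for Xist reads in the fit, edgeR's quasi-likelihood test called Ndufb10, Ndufs1 and Uqcrc2 lower in WT than in TRPV4-KO, with adjusted p of 0.0360, 0.0469 and 0.0454 (1.24% of all genes called lower and 2.3% higher), and 0 members against GSK219, where 0.0132% of all genes were called in each direction.

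Genes that work with the chain but fall outside the symbol rule were listed as 6 groups, and none of their members was called in the livers. Complex II and cytochrome c genes were negative in 10 of 10 against TRPV4-KO (median -0.40) and in 8 of 10 against GSK219 (median -0.23). Sdhd, a membrane anchor of succinate dehydrogenase, had 124 ± 14.7 CPM in WT (SD, n = 2) and 172 ± 6.56 CPM in TRPV4-KO livers (SD, n = 3), and Cyc1, the cytochrome c1 of complex III, 164 ± 27.6 and 236 ± 23.2 CPM. Other assembly factors were negative in 26 of 30 (median -0.22) and 25 of 30 (median -0.18). They included Lyrm7, a complex III assembly factor, with the opposite sign (1.60 ± 0.40, at 1.46 CPM in WT and 0.479 CPM in TRPV4-KO), and Ecsit (-0.41 ± 0.12).

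For replication and transcription of mitochondrial DNA, 20 of 21 genes were negative against TRPV4-KO (median -0.15) and 16 of 21 against GSK219 (median -0.13). Tfam, which packages mitochondrial DNA and starts its transcription, had 32.9 ± 0.737 CPM in WT and 42.9 ± 2.11 CPM in TRPV4-KO livers, and Mgme1, a nuclease of mitochondrial DNA, 6.71 ± 0.834 and 9.85 ± 0.620 CPM. Regulators of mitochondrial biogenesis were mixed, with 9 of 13 negative (median -0.20) and 7 of 13 negative (median -0.03). Esrra, a nuclear receptor of this program, had -0.76 ± 0.24 against TRPV4-KO, and Sirt3, a mitochondrial deacetylase, -0.35 ± 0.11. Uncoupling proteins and nucleotide carriers were negative in 5 of 8 in both comparisons. Ucp2, an uncoupling protein abundant in immune cells, had the opposite sign, at 123 ± 61.8 CPM in WT, 44.0 ± 13.9 CPM in TRPV4-KO and 53.2 ± 16.9 CPM in GSK219 livers. Of the ribosomal and transfer RNAs of mitochondria, 13 of 15 were negative against TRPV4-KO (median -0.42) and 8 of 15 against GSK219 (median -0.02).

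In PSCs treated with Yoda1, the ATP synthase genes Atp5c1 and Atp5o were slightly lower than with DMSO on the deposited scale but were not called with scaling by library totals, and the mitochondrially encoded genes showed no common direction. Of the 92 members listed, 91 were tested, all but Cox4i2. By limma's test with Benjamini-Hochberg adjustment, 2 nuclear members were called lower and 0 higher, where 2.47% of all 15145 genes were called lower and 2.19% higher, so the share of members called, 2 of 84, was near the background. Both fell in all 3 preparations. Atp5c1, the gamma subunit of the central stalk (chr2:10056016-10080510), had 5164, 5380 and 4935 with DMSO and 4318, 4151 and 4173 with Yoda1, a log2 fold change of -0.29 ± 0.05 and an adjusted p of 0.0357. Atp5o, the subunit that joins the stalk to the catalytic head (chr16:91925214-91931687), had 3567, 3739 and 3646 with DMSO and 3131, 3092 and 2947 with Yoda1 (-0.26 ± 0.05, adjusted p of 0.0426). No DMSO value of either gene reached down to a Yoda1 value.

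Over the 84 tested nuclear members, 65 were negative (51.1% of all genes), with a median of -0.09 (all genes -0.01). This direction depended on the scaling. With the recovered reads scaled by library totals, an alternative chosen after seeing the data, the median of all genes shifted to 0.11 and that of the nuclear members to 0.021, 33 of the 84 were negative, and 0 were called by limma's test in either direction. That scaling called 281 of all genes lower (1.86%) and 926 higher, against 374 and 331 on the deposited scale. Atp5c1 then had -0.18 ± 0.06 (adjusted p of 0.120) and Atp5o -0.14 ± 0.05 (adjusted p of 0.136). The nuclear members took 0.629–0.659% of the reads with DMSO and 0.618–0.663% with Yoda1. On the deposited scale, in 29 all Yoda1 values were below all DMSO values (15.1% of all genes) and in 3 above (14.9%). In 41 of 84 genes Yoda1 was lower in each of the 3 preparations (29.4% of all genes), and in 7 higher (27.2%). At an unadjusted p under 0.05, 20 were lower (11.5% of all genes) and 1 was higher (11.2%).

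Because the DMSO and Yoda1 libraries share these codes and deviated together, the comparison was also fitted with the preparation as a block. In the block fit, limma's test called 12 nuclear members lower and 1 higher (9.55% and 8.68% of all genes). Of the 12, 8 were among the 17 nuclear genes with an Atp5 symbol, 3 were complex I subunits (Ndufb10, Ndufb7 and Ndufv2) and 1 was Uqcrc2 of complex III. None of the 14 tested genes of complex IV was called. The gene called higher was Ndufa6, an accessory subunit of complex I, at 1130, 1245 and 1333 with DMSO and 1233, 1508 and 1563 with Yoda1 (0.21, adjusted p of 0.0476 with the block).

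Of these 17, 14 were negative (median -0.13). Atp5s and Atp5sl carry the symbol but are not subunits of the enzyme, and without them 14 of 15 were negative (median -0.19). The 8 called with the block covered the catalytic head (Atp5a1, Atp5b), the central stalk (Atp5c1), the peripheral stalk (Atp5o, Atp5f1), the proton-conducting ring (Atp5g1, Atp5g3) and the membrane subunit f (Atp5j2). Atp5b had 38174, 38138 and 37574 with DMSO and 32467, 32761 and 32539 with Yoda1, with differences in the 3 preparations of -0.23, -0.22 and -0.21 on the log2 scale. Atp5a1 had 21543, 21396 and 20678 with DMSO and 18658, 18283 and 17889 with Yoda1 (-0.21 in the fit). Both genes differed by nearly the same amount in every preparation. The 3 that were not negative were Atp5j, another subunit of the peripheral stalk (0.00 ± 0.05), Atp5s (0.17 ± 0.13) and Atp5sl (0.03 ± 0.12), and Atp5d of the central stalk had -0.07 ± 0.05. The sum over complex V was 100801, 101511 and 99211 with DMSO and 87338, 87567 and 88154 with Yoda1.

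**Figure D5:**
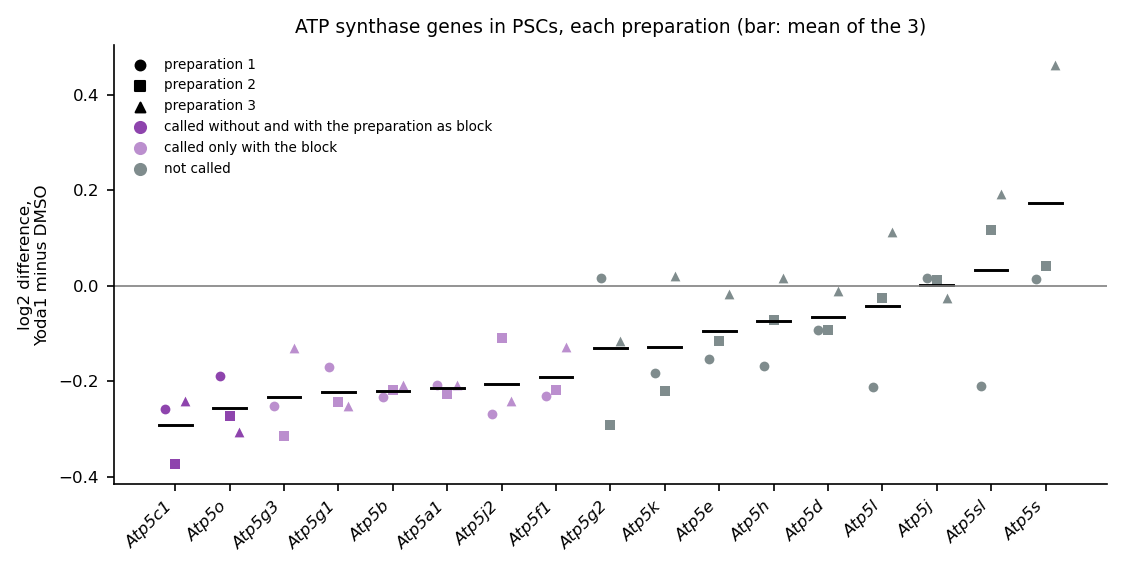
Log2 difference of Yoda1 minus DMSO for the 17 nuclear genes with an Atp5 symbol in each of the 3 PSC preparations; markers are preparations and bars the mean of the 3. The 8 colored genes are called with the preparation as block, and Atp5c1 and Atp5o also without it, all on the deposited scale.

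Complex I had 28 of 38 nuclear genes negative (median -0.08), or 27 of 36 without Ndufa4 and Ndufa4l2, and complex III 7 of 8 (median -0.10). Ndufb10 had 1693, 1766 and 1758 with DMSO and 1422, 1509 and 1458 with Yoda1 (-0.25 ± 0.05), and was not called by limma's test (adjusted p of 0.0502) but was called with the block (0.0198). Uqcrc2 had 3986, 3964 and 4034 with DMSO and 3315, 3292 and 3695 with Yoda1 (-0.22 ± 0.06, adjusted p of 0.0964, 0.0343 with the block). Complex IV had 11 of 14 negative (median -0.09). Cox7a2 had 2732, 2773 and 2842 with DMSO and 2456, 2494 and 2548 with Yoda1 (-0.15 ± 0.05, adjusted p of 0.121). Of the assembly factors Ndufaf2 had the smallest p (-0.17 ± 0.07, adjusted p of 0.214).

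Among the isoform pairs, Cox6a2 of heart and skeletal muscle had 34.9, 65.1 and 88.8 with DMSO and 135, 187 and 95.4 with Yoda1, with preparation differences of 1.92, 1.51 and 0.10 on the log2 scale (1.18 ± 0.39, adjusted p of 0.146). The first 2 preparations differed strongly and the third hardly. DESeq2 on the recovered reads called it higher (4.8% of all genes). Its common partner Cox6a1 was at 3915, 3846 and 4178 with DMSO and 3395, 3610.2 and 3597 with Yoda1 (-0.17 ± 0.06, adjusted p of 0.143). Ndufa4l2 was low and scattered, at 27.4, 53.8 and 87.8 with DMSO and 61.1, 120.1 and 68.2 with Yoda1.

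The 7 mitochondrially encoded genes listed for PSCs had a median log2 fold change of 0.05, with 2 negative and 5 positive, and 0 were called by limma's test, by edgeR or DESeq2 on the recovered reads, or at an unadjusted p under 0.05. Their summed values overlapped, at 339548–361623 with DMSO and 338250–391423 with Yoda1. As a share of the reads, without a size factor, they took 1.00–1.03% with DMSO and 1.06–1.25% with Yoda1. For mt-Nd2 and mt-Nd6 the third preparation stood apart, in opposite directions. For mt-Nd2 the preparation differences were 0.08, 0.04 and 0.79, and for mt-Nd6 -0.04, -0.06 and -0.73. The catalytic subunit mt-Co1 had 128988, 127872 and 131162 with DMSO and 130043, 136867 and 133879 with Yoda1 (0.05 ± 0.06). The values of mt-Cytb were 75199, 74738 and 76081 with DMSO and 65655, 64084 and 73315 with Yoda1 (-0.16 ± 0.07), lower in all 3 preparations, with an adjusted p of 0.240.

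The calls in PSCs were near the threshold. Leaving out DMSO 1, 2 or 3 or Yoda1 1 or 2 left 0 nuclear members called by limma's test, where 0.147–1.15% of all genes were called lower, and leaving out Yoda1 3 gave 8 lower and also mt-Cytb (3.87% of all genes lower, 3.18% higher), so the counts of members moved with those of all genes. On the recovered reads DESeq2 called 8 nuclear members lower (4.76% of all genes), and edgeR called Atp5c1 and Atp5o (2.31% lower, 2.24% higher). Of the 9 stellate cell markers 7 were negative, with a sum of 917175–1014870 with DMSO and 452493–567974 with Yoda1 and 6 called lower. The measured leukocyte markers summed to 2158–2434 with DMSO and 2180–3365 with Yoda1, and those of duct and acinar cells to 19075–26252 and 17461–33716. The endothelial markers summed to 1803–2163 and 1268–1456, but only Kdr was negative (from 1586 to 758, adjusted p of 0.0299 by limma's test), while the other 4 were positive and the median log2 fold change of the 5 was 0.53. Of these lists 4 of 11 leukocyte, 5 of 6 endothelial, and 9 of 10 duct and acinar markers are in the PSC table. So are 2 of 10 hepatocyte markers, with a sum of 2741–3571 with DMSO and 1497–2596 with Yoda1, and 1 of the 2 was negative. The part of these markers in the values of the respiratory chain was not tested. Of the related groups, complex II and cytochrome c genes were negative in 8 of 8 (median -0.08, 0 called). Tmem70, an assembly factor of ATP synthase, fell from 2093 ± 146 to 1677 ± 44.96 (SD, n = 3 each, adjusted p of 0.0482 by limma's test), and 16 of 30 genes of its group were negative. Polg, the polymerase of mitochondrial DNA, fell from 2782 ± 66.9 to 2265 ± 125 (adjusted p of 0.0426), with 11 of 16 negative in its group. Vdac2, a channel of the outer membrane, fell from 9932 ± 248.9 to 8043 ± 392 (adjusted p of 0.0367), with 6 of 8 negative in its group. Of the regulators of biogenesis, 7 of 12 were negative and 0 called, with Ppargc1b at -0.58 ± 0.13 and Ppargc1a, at 8.24 against 26.4, at 1.67 ± 0.43. Among mitochondrial RNAs, mt-Rnr2 had 0.51 ± 0.15 and an adjusted p of 0.112.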

How the data were processed

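RNA was measured in 8 mouse livers and 6 PSC libraries, and the label titles gave the group of each sample. For the livers the authors deposited raw counts per gene, and gene coordinates fit GRCm38. The same table has 7 columns that belong to no listed sample, which were left out. For PSCs the authors deposited a normalized signal per gene. Within a tolerance of 0.01, 100% of these values were multiples of a fixed step for each library, so reads were recovered for the alternative count tests. The authors' own fold changes, standard errors, test scores and p-values for Yoda1 over DMSO, also in that table, were not used. Submitters' notes name HISAT2 2.0.5 and Trim Galore. The counting tool, its treatment of strand and of reads with several matches, and the PSC build are not given in the sources used here.

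In R 4.3.3, liver counts were tested with edgeR 4.0.16 (TMM, filterByExpr with a minimum count of 10, robust quasi-likelihood fit of all 8 livers, group only). For PSCs limma 3.58.1 (trend, robust) was run on log2(value + 1) for values of at least 10 in at least 3 libraries. PSC fold changes are therefore on the log2(value + 1) scale. Adjustment was by Benjamini-Hochberg over all genes tested, with calls at an adjusted p under 0.05. No p was computed over the members alone. Steps were tested on simulated data. DESeq2 1.42.0 was an alternative. P-values measure the spread between the samples, and WT had 2 livers.

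A DMSO and a Yoda1 library share each PSC code, called a preparation here, and the paired libraries deviated together (correlations across genes of 0.43, 0.26 and 0.53), so the block fit is given beside the result. Named genes were all mitochondrially encoded members, every nuclear member called, the smallest p of each complex in each comparison, isoform pairs and the 2 smallest p of each related list. Ndufs1, Ndufv1, Uqcrc1, Uqcrq, Cox6b1, Atp5b, Atp5a1, Atp5d, Atp5j, Atp5s, Atp5sl, Kdr, Ndufaf4, Ndufaf7, Ndufa12, Xist, the muscle genes and the genes printed for promoter motifs are named outside this rule, by choice with their values in view. The members and lists were chosen with earlier results of these data known. Promoter windows are from RefSeq, and copies of mitochondrial genes were aligned with biopython 1.88 from GENCODE transcripts of GRCm38. Not every gene that the naming rule chose is reported here.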

Additional observations from a re-analysis of the deposited data

How the results depend on the processing

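The nuclear members called lower in WT than in TRPV4-KO livers numbered 0 by edgeR, 11 by DESeq2, 3 with a term for Xist reads and 1 (Ndufb10) with the replicate number as a block, where 0.906% of all genes were called lower. Leaving out each liver in turn gave 0 to 14, with 0.0063% to 3.62% of all genes called lower. Liver replicate numbers share only a number, with correlations of deviations from -0.52 to 0.59, so nothing was paired there. The median over nuclear members against GSK219 ranged from -0.30 to -0.12 with a liver left out. In PSCs, 2 nuclear members were called lower and 0 higher. With the replicate block it was 12 and 1, by DESeq2 8 and 1, and with a log2 fold change over 1 required 0 lower. Leaving out each PSC library gave 0 to 8 nuclear and 0 to 1 mitochondrial members called lower, with 0.147% to 3.87% of all genes called lower. The cause of these differences was not tested, other than that a left-out library leaves fewer samples. Scaling of PSC reads by library totals, chosen after seeing the data, gave 0 called lower and turned the nuclear median to 0.021, where that of all genes was 0.11. The other alternatives left these counts and medians within 1.5 times or 1 SD: in livers RLE scaling, library totals alone, scaling without mitochondrial genes, no filter and only the groups compared, and in PSCs TMM scaling of the reads, scaling without mitochondrial genes, edgeR on the reads, no filter and pseudocounts of 0.1 and 10. Of 1435 values of named genes under an alternative, 1401 had the sign of the reported value and 34 the other sign. With 2 WT livers and small differences, genes at a few counts, such as Cox7a1 and mt-Atp8, have no firm value.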
